A study of Mus musculus with 40 samples.

Results

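The genes described here belong to the cell adhesion and synapse families: cadherins (Cdh), protocadherins (Pcdh), contactins (Cntn), contactin-associated proteins (Cntnap), neurexins (Nrxn), neuroligins (Nlgn), semaphorins of classes 3 to 7 (Sema), Dscam and the Roundabout receptors (Robo). They were chosen by gene symbol among the transcript loci of the RNA table that overlap a gene on their own strand. This gave 82 loci of 65 genes, out of 38540 loci in the table and 15023 loci (14062 genes) with a gene name on the same strand. Leucine-rich repeat transmembrane genes (Lrrtm) were part of the rule and no locus of that name was found.

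The libraries came from germinal-vesicle oocytes, the fully grown oocytes of the ovary before meiotic maturation. Each sample was a pool of 100 to 200 oocytes, dissected by hand from mice of 22 to 25 days of age (per the labels' protocols). RNA was sequenced from 3 controls and 3 G9a cKO samples (conditional deletion of G9a) whose titles carry the prefix GKAO, and from 3 controls and 2 G9a-Glp cDKO samples (conditional deletion of both G9a and Glp, here cDKO) with the prefix GKAQ. Native chromatin immunoprecipitation of H3K9me2, dimethylation of lysine 9 on histone H3, gave 2 libraries each of control, G9a cKO and cDKO. The labels name no Cre driver, deleted exon or strain, and they do not say whether replicates came from separate mice, so p-values measure only the spread between these samples. The labels name no treatment.

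Cadherins and protocadherins are membrane proteins that hold cells together through repeated extracellular domains, and E-cadherin (Cdh1) is a known adhesion protein of the oocyte surface. Contactins, contactin-associated proteins, neurexins and neuroligins join the membranes of neurons to each other and to glia. Semaphorins and Roundabout receptors steer growing axons: semaphorins act as ligands for plexins and neuropilins, and the Roundabout receptors Robo1 and Robo2 bind Slit proteins. G9A (gene Ehmt2) and GLP (gene Ehmt1) form a complex that places H3K9me2, a mark of repressed chromatin.

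The 250 bases before the RefSeq start are shown for the 4 called genes with the most reads in the mutant libraries and a RefSeq promoter (RefSeq, GRCm38.p6), since they show how differently these genes begin. Capitals mark CG dinucleotides, the sites of DNA methylation, and each sequence reads 5′ to 3′ on the strand of the gene.
Cdh8 chr8:99416472-99416721, minus strand: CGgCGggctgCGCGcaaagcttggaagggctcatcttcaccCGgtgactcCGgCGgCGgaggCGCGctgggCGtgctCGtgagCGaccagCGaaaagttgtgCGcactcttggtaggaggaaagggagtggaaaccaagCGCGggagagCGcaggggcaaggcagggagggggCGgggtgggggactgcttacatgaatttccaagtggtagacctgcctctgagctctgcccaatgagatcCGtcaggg
Robo1 chr16:72662899-72663148, plus strand: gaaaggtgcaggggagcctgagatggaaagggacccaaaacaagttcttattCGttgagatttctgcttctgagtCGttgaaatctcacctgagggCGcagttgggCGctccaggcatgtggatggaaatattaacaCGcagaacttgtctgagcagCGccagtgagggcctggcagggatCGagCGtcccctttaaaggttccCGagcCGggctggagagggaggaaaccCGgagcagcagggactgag
Robo3 chr9:37433176-37433425, minus strand: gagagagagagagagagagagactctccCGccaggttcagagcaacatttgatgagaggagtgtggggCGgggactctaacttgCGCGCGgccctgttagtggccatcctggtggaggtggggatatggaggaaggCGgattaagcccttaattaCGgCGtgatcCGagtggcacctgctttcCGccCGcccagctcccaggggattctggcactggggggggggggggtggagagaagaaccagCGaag
Cntn6 chr6:104492794-104493043, plus strand: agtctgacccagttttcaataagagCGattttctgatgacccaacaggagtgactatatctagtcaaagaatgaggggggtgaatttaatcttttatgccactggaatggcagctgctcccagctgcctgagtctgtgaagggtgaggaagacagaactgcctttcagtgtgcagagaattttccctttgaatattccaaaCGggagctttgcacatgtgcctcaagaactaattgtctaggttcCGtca
The Cdh8 window held 20 CG, and 82.05% of the RefSeq promoter windows of the same length held fewer. The Robo3 window held 12 CG and the Robo1 window 11, against a median of 6 over all windows, and the Cntn6 window held 3. TATAAA on either strand was found in none of the 4 and in 12.4% of all windows. GGGCGG on either strand was found in the Cdh8 and Robo3 windows and in 32.7% of all windows. The RNA locus began 70 bases upstream of the RefSeq start for Cdh8, 84 bases upstream for Robo3 and 204 bases downstream for Cntn6. For Robo1 the locus began 99451 bases upstream of the nearest RefSeq start in the table.

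RNA levels are reads over a locus scaled to a common library total (RPM), and loci whose mean level in the 11 RNA libraries reached 10 RPM are called detected. The libraries were scaled to totals of 1458868 to 2399680 reads, and loci of few reads are given in reads. Ehmt1 had 31 and 36 reads in the cDKO libraries against 144 to 173 in their controls. Ehmt2 had 2 to 11 reads in G9a cKO against 9 to 13 in its controls, and the library labelled G9a cKO replicate 2, with 11, lay within the control range. Whether the counted stretch includes the deleted part is not given in the sources used here. Summed levels of 13 oocyte marker loci lay between 14444 and 17607 RPM in every library. Summed levels of 13 granulosa cell marker loci were 189 to 200 RPM in GKAO controls, 141 to 167 RPM in G9a cKO, 136 to 167 RPM in GKAQ controls and 123 to 149 RPM in cDKO. The granulosa cell gene Foxl2 had 0 reads in the 3 GKAO controls, 1 to 2 in G9a cKO, 0 to 2 in GKAQ controls and 0 to 4 in cDKO, the only blood marker locus (Hba-a1) had 0 reads in all libraries, and the 4 stromal loci summed to at most 5.00 RPM. In pooled cells, fewer cells expressing a gene and less RNA per cell cannot be told apart.

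Most of these loci were at low levels in oocytes. Of the 82 loci, 27 (32.9%, of 26 genes) were detected, against 46.2% of all named loci and 23.6% of all loci. Another 22 loci had at most 3 reads in every library, 9 of them with no read at all. The loci were long: their median length was 84.25 kb against 20.9 kb for named loci, and 38 (46.3%) reached 100 kb, against 12.8% of named loci. Overlap with a transcript of the opposite strand affected 28 loci, and no source used here says if the strand was used in counting, so reads of such pairs cannot be told apart.

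Per kilobase of locus, introns included, the order of mean control levels among detected loci ran from Pcdh9 (6.32 RPM per kb) through Cdh1 (2.84 RPM per kb), Nlgn1 (1.77 RPM per kb) and Cntn2 (1.26 RPM per kb) to Cdh24, Robo3 and Cdh8 (1.19, 1.12 and 1.05 RPM per kb), and down to Cntnap2 (0.00647 RPM per kb). The Pcdh9 locus covered only 3.38% of the RefSeq gene, at its 5′ end, and the detected Nlgn1 locus 2.55%, near its 3′ end, so these levels describe short transcribed stretches. Across the 82 loci the median share of the RefSeq gene covered was 75%, and 20 loci covered under 10%.

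In G9a cKO oocytes, Robo1, Robo3, Cdh8 and a short Nrxn3 locus were higher than in their controls, and Cntn6 was lower. In cDKO oocytes, 13 loci of 13 genes were higher: the 3 Roundabout genes, 5 cadherins (Cdh8, Cdh9, Cdh11, Cdh12 and Cdh17), the protocadherins Pcdh8 and Pcdh15, Nrxn3, Cntnap5a and Sema3d, while a Cdh4 locus was lower. For the higher loci with more than 3 reads in their controls the changes ran from 0.34 (Cdh8 in G9a cKO) to 2.74 (Robo2 in cDKO) on the log2 scale. For Nrxn3, Pcdh8 and Cntnap5a, with fewer control reads, ratios of summed reads are given with their intervals, since the fitted change depends on the 0.9 read set for an empty locus. By limma with Benjamini-Hochberg adjustment over all loci, 5 members (6.10%) were called at an adjusted p under 0.05 in G9a cKO, against 1.79% of all loci, and 14 (17.1%) in cDKO, against 6.34% of all loci. By direction, 4 members (4.88%) were higher in G9a cKO, against 1.05% of all loci, and 13 (15.9%) in cDKO, against 4.32%. Among detected loci, 4 of 27 members (14.8%) were called in G9a cKO against 5.22% of detected loci, and 7 (25.9%) in cDKO against 15.8%. Both contrasts called Robo1, Robo3, Cdh8 and Nrxn3. The contrasts share no library, but 1 model of all 11 libraries gave the spread for both, so their calls are not independent.

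**Figure D1:**
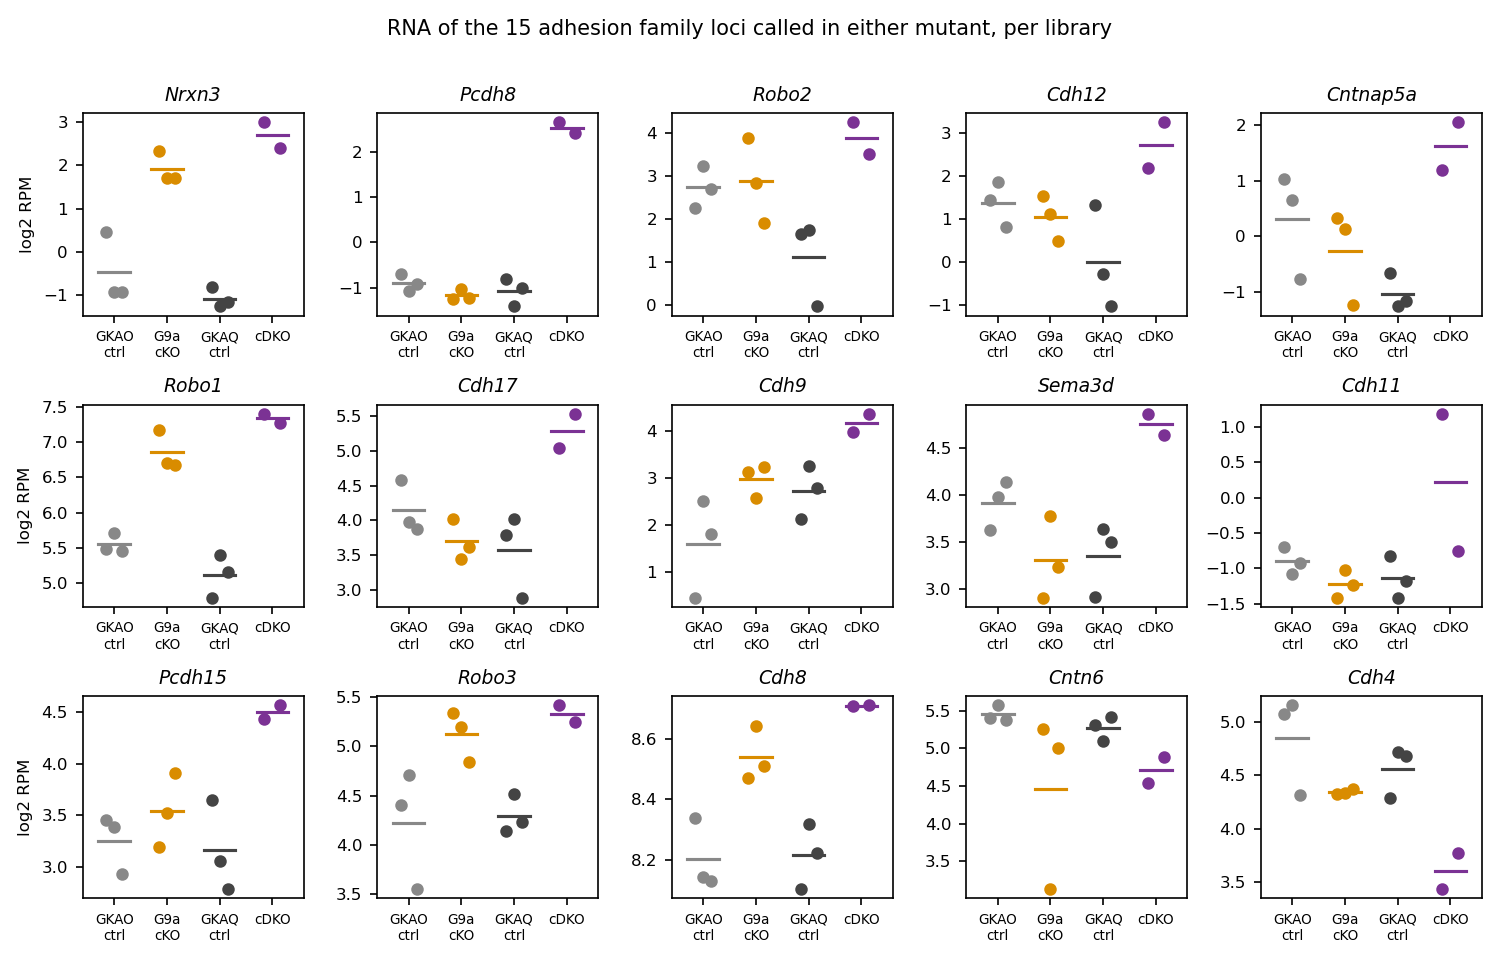
Log2 RPM of the 15 loci called in either mutant, with 1 point per library, 1 panel per gene and a line at each group mean. The panels run from the strongest rise in cDKO (Nrxn3, Pcdh8) to the loci that were lower (Cntn6, Cdh4), and axes differ between panels; empty loci are drawn at the value the table gives them, 0.9 read.

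Of the 4 loci of the Roundabout receptors, 2 were higher in G9a cKO and 3 in cDKO, against 1.05% and 4.32% of all loci. Robo1 (chr16:72563698-73046100, the 3′ 47.3% of the RefSeq span) stood at 44.6, 52.4 and 43.9 RPM in GKAO controls and at 145, 104 and 103 RPM in G9a cKO. In GKAQ controls Robo1 stood at 27.7, 42.1 and 35.5 RPM, and in cDKO at 169 and 155 RPM. Every mutant library lay above every control, and the cDKO libraries lay above those of G9a cKO. The G9a cKO rise was 1.31 ± 0.17 (log2 fold change ± SE; adjusted p = 6.8e-12, limma) and the cDKO rise 2.23 ± 0.19 (adjusted p = 9.0e-30). Tested directly, the rise was larger in cDKO by 0.92 ± 0.25 (adjusted p = 0.0271). This difference missed the threshold when GKAO control replicate 2 or G9a cKO replicate 2 or 3 was left out (adjusted p = 0.0953 to 0.125). Without cDKO replicate 1, which leaves 1 cDKO library, it was 0.86 and missed the threshold too. It was also lost when centred on detected loci, with voom weights or with 2 RPM added (adjusted p = 0.0536, 0.199 and 0.405).

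Robo3 (chr9:37415669-37433259), a Roundabout receptor known for midline crossing of axons, stood at 21.2, 26.2 and 11.7 RPM in GKAO controls and at 40.5, 36.6 and 28.7 RPM in G9a cKO. Its levels in GKAQ controls were 17.6, 22.9 and 18.7 RPM, and in cDKO 42.7 and 37.9 RPM. Both mutant groups lay above all their controls. The G9a cKO rise was 0.90 ± 0.25 (adjusted p = 0.0207) and the cDKO rise 1.04 ± 0.28 (adjusted p = 0.00559), and the effects differed by 0.13 ± 0.37 (adjusted p = 0.841). Without GKAO control replicate 3 the G9a cKO value was 0.57 (adjusted p = 0.362), and without the libraries labelled G9a cKO replicate 1 or 2 the adjusted p was 0.19 or 0.126. Without cDKO replicate 1 the cDKO value was 0.95 (adjusted p = 0.105).

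Robo2 was measured at 2 short loci near the 3′ end of its gene, of which the called one (chr16:73920214-73982048) covers 3.98% of the RefSeq span. It stood at 4.798, 9.43 and 6.45 RPM in GKAO controls and at 14.6, 7.10 and 3.77 RPM in G9a cKO, so these groups overlapped. In GKAQ controls it stood at 3.14, 3.33 and 0.986 RPM (5, 8 and 2 reads) and in cDKO at 18.8 and 11.3 RPM (33 and 19 reads), above every control. The rise in cDKO was 2.74 ± 0.52 (adjusted p = 1.1e-05), while the G9a cKO value was 0.14 ± 0.46 (adjusted p = 0.857). The effects differed by 2.60 ± 0.69 (adjusted p = 0.0233). The controls of this locus also differed from each other: GKAQ controls were lower than GKAO controls by -1.61 ± 0.46 (adjusted p = 0.0173), and without GKAQ control replicate 3 that value was -1.03 (adjusted p = 0.439), while without GKAO control replicate 2 it was -1.35 (adjusted p = 0.178). The difference between effects was lost without GKAO control replicate 2, G9a cKO replicate 2 or 3, GKAQ control replicate 3 or cDKO replicate 1 (adjusted p = 0.0539 to 0.198). The difference between control groups was called for 3 members (3.66%, against 3.87% of all loci), the others being Pcdh9 (0.63 ± 0.11 higher in GKAQ) and Cdh1 (-0.49 ± 0.11).

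Among the cadherins, 5 of 21 loci were higher in cDKO and 1 was lower, while 1 was higher in G9a cKO. The shares of all loci were 4.32% higher and 2.02% lower in cDKO, and 1.05% higher in G9a cKO. Cdh8 (chr8:99133073-99416541), a cadherin of neural circuits, was the most abundant of the called loci. It stood at 324, 283 and 280 RPM in GKAO controls, at 354, 399 and 364 RPM in G9a cKO, at 275, 320 and 299 RPM in GKAQ controls and at 418 and 419 RPM in cDKO. Both mutant groups lay wholly above their controls, by a small margin. The G9a cKO rise was 0.34 ± 0.09 (adjusted p = 0.0133) and the cDKO rise 0.49 ± 0.10 (adjusted p = 5.1e-05). The G9a cKO call was lost without GKAO control replicate 2 or 3 or the library labelled G9a cKO replicate 2 (0.29 to 0.31, adjusted p = 0.0953 to 0.128). Cdh8 overlaps 3 loci on the other strand.

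Cdh17 (chr4:11734358-11817895), known as the cadherin of liver and intestine, was called in cDKO and not in G9a cKO. GKAO controls had 24.0, 15.7 and 14.6 RPM and G9a cKO had 16.3, 10.9 and 12.2 RPM, which overlap. GKAQ controls had 13.8, 16.3 and 7.39 RPM, and the cDKO libraries, at 33.0 and 46.2 RPM, lay above all other libraries. The cDKO rise was 1.72 ± 0.33 (adjusted p = 1.8e-05), the G9a cKO value was -0.45 ± 0.30 (adjusted p = 0.274), and the effects differed by 2.17 ± 0.44 (adjusted p = 0.000459).

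Cdh9 (chr15:16728692-16857993), another cadherin of neurons, had 1.37, 5.76 and 3.52 RPM in GKAO controls and 8.77, 6.01 and 9.42 RPM in G9a cKO. GKAQ controls had 4.40, 9.58 and 6.90 RPM and the cDKO libraries 15.9 and 20.7 RPM. Each mutant group lay above its controls. The cDKO value of 1.46 ± 0.48 was called (adjusted p = 0.0441) and the G9a cKO value of 1.39 ± 0.43 was not (adjusted p = 0.0686). The effects differed by 0.07 ± 0.65 (adjusted p = 0.953), and the cDKO call was lost without GKAQ control replicate 1 or 3 or either cDKO library (adjusted p = 0.096 to 0.349).

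Cdh12 and Cdh11 were called in cDKO on few reads. The Cdh12 locus (chr15:21318344-21320030, 0.147% of the RefSeq span) had 4, 2 and 1 reads in GKAQ controls and 8 and 16 in cDKO, with a rise of 2.70 ± 0.73 (adjusted p = 0.00642). Its GKAO controls had 4, 7 and 3 reads and G9a cKO 7, 4 and 3. The Cdh12 call was lost without GKAQ control replicate 3 (2.18, adjusted p = 0.0817) or cDKO replicate 2 (2.17, adjusted p = 0.223). Cdh11 (chr8:102632995-102736864) had 0 reads in all 9 libraries outside the cDKO group and 4 and 1 reads in cDKO. No fold is given against empty controls (adjusted p = 0.0354), and without cDKO replicate 1 the adjusted p was 0.694. Without GKAQ control replicate 2 or 3 the Cdh11 call was lost too (adjusted p = 0.178 and 0.138).

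Cdh4 (chr2:179776286-179899373, the 3′ 26.9% of the gene) was the only member locus lower in cDKO, 1.22% of members against 2.02% of all loci. GKAQ controls had 19.5, 26.3 and 25.6 RPM and the cDKO libraries 10.8 and 13.6 RPM, below all controls. The value was -0.96 ± 0.30 (adjusted p = 0.0276). Cdh4 had 33.6, 35.6 and 19.9 RPM in GKAO controls and 20.04, 20.2 and 20.7 RPM in G9a cKO, where it was not called (-0.50 ± 0.27, adjusted p = 0.23). The cDKO call was lost without GKAQ control replicate 2 or 3 or cDKO replicate 1 (adjusted p = 0.118 to 0.282). The other Cdh4 loci, which cover 0.514%, 0.208% and 4.07% of the gene, were neither detected nor called in RNA. E-cadherin (Cdh1) and N-cadherin (Cdh2) were not called in either mutant. Cdh1 values were -0.20 ± 0.11 in G9a cKO and 0.30 ± 0.12 in cDKO (adjusted p = 0.23 and 0.153). Those of Cdh2 were 0.04 ± 0.32 and -0.03 ± 0.35 (adjusted p = 0.949 and 0.951).

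Non-clustered protocadherins gave 2 of 10 loci higher in cDKO, against 4.32% of all loci, and the 5 clustered protocadherin loci gave no call. Pcdh8 (chr14:79766772-79771312), a protocadherin of synapses and of early mesoderm, was nearly without reads outside the cDKO group. It had 0, 0 and 0 reads in GKAO controls, 1, 0 and 0 in G9a cKO, 0, 0 and 1 in GKAQ controls, and 11 and 9 in cDKO. The cDKO libraries lay above all others. Summed over the groups, 20 reads against 1 gave a ratio of 35.0 (95% exact interval 5.59 to 1449, counting error only), with an adjusted p of 2.8e-05, and the effects differed by 3.89 ± 0.95 (adjusted p = 0.00832), a fitted value that depends on the 0.9 read set for an empty locus. This small gene was covered whole.

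Pcdh15, a tip-link protein of hair cells, was measured at 3 loci. The 5′ locus (chr10:73098474-73652905) had 12.6, 8.33 and 6.90 RPM in GKAQ controls and 21.6 and 23.7 RPM in cDKO, above all controls, with a rise of 1.34 ± 0.39 (adjusted p = 0.0136). In GKAO controls it had 10.97, 10.5 and 7.62 RPM and in G9a cKO 9.18, 11.5 and 15.1 RPM, which overlap (0.29 ± 0.35, adjusted p = 0.572). The 3′ locus (chr10:73821867-74646314) had 38.3, 53.8 and 44.9 RPM in GKAQ controls and 39.3 and 48.0 RPM in cDKO, and was not called (-0.06 ± 0.21, adjusted p = 0.848). The middle locus had no read in any library, and whether the loci of Pcdh15 changed unequally was not tested. The call of the 5′ locus was lost without GKAQ control replicate 2 or 3 or either cDKO library (adjusted p = 0.0543 to 0.136), and it overlaps 4 loci on the other strand.

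Neurexin 3, a presynaptic membrane protein that binds neuroligins, was also measured at 3 loci. Those that cover 52.5% and 32.4% of the gene were neither detected nor called in RNA. The called one (chr12:89799351-89806138) spans 0.421% of the gene. It had 2, 1 and 0 reads in GKAO controls and 12, 6 and 7 in G9a cKO. It had 0, 1 and 0 reads in GKAQ controls and 14 and 9 in cDKO, so each mutant group lay above its controls. Summed reads gave a ratio of 6.66 (95% exact interval 2.03 to 34.5) in G9a cKO (adjusted p = 0.0469) and of 40.2 (6.53 to 1656) in cDKO (adjusted p = 0.000135). The effects differed by 1.40 ± 1.07 (adjusted p = 0.333). In G9a cKO the call was lost without GKAO control replicate 2 or 3 or any 1 of the G9a cKO libraries (adjusted p = 0.105 to 0.229), while in cDKO it was kept without each library in turn. The neuroligin Nlgn1 was not called: its values were 0.22 ± 0.20 in G9a cKO (adjusted p = 0.453) and -0.03 ± 0.23 in cDKO (adjusted p = 0.92).

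**Figure D2:**
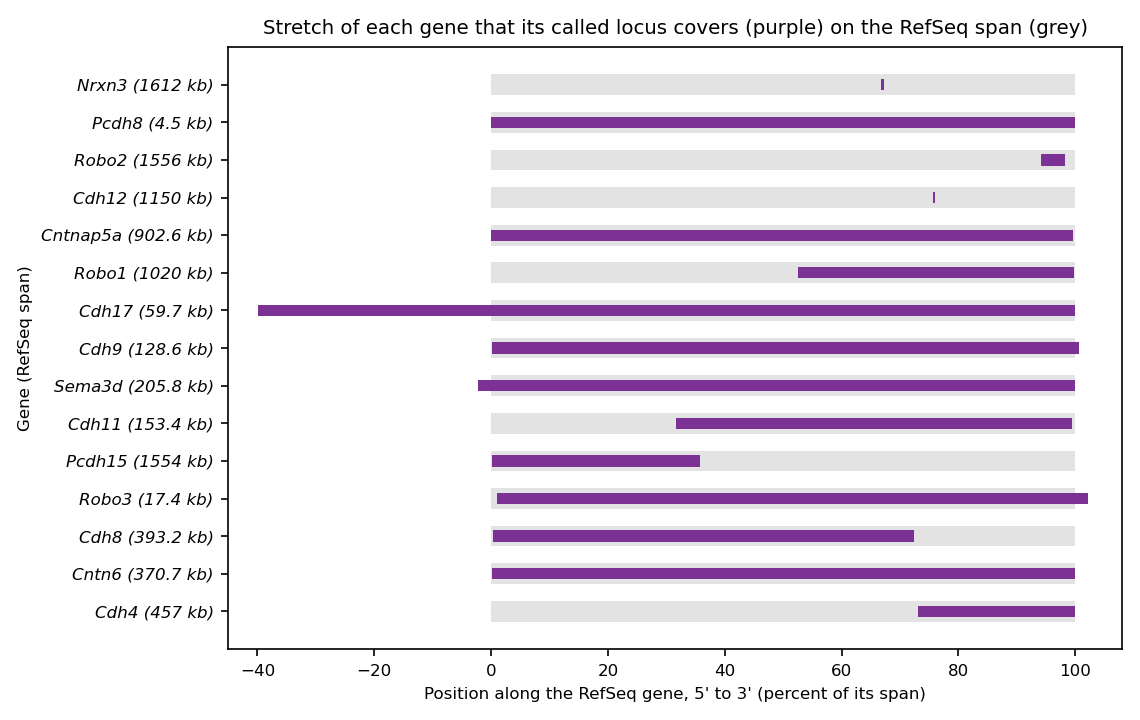
Stretch of each RefSeq gene (grey, 0 to 100% of its span from 5′ to 3′) that the locus called in either mutant covers (purple), with 1 row per gene and its RefSeq span in kb. The Nrxn3, Cdh12 and Robo2 loci cover 0.421%, 0.147% and 3.98% of their genes, while those of Pcdh8, Cntnap5a, Cdh9 and Cntn6 cover nearly the whole gene; very short loci are drawn at least 0.4% wide.

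Contactins (6 loci) and contactin-associated proteins (9 loci) gave 1 call in each mutant. Of all loci, 1.79% were called in G9a cKO and 6.34% in cDKO. Cntn6 (chr6:104493248-104863406), a contactin of neurons, had 42.5, 47.7 and 41.6 RPM in GKAO controls and 38.4, 8.74 and 32.0 RPM in G9a cKO. All G9a cKO libraries lay below the controls, and the one labelled replicate 2 stood far below the other two. The value was -0.99 ± 0.23 (adjusted p = 0.00241), which makes Cntn6 the only member lower in G9a cKO (1.22%, against 0.737% of all loci). Without the library labelled G9a cKO replicate 2 it was -0.32 (adjusted p = 0.328), so the call rests on that library. In cDKO, Cntn6 had 23.3 and 29.6 RPM against 39.6, 34.2 and 42.9 RPM in controls, below all of them, and was not called (-0.56 ± 0.26, adjusted p = 0.224). The effects differed by 0.43 ± 0.34 (adjusted p = 0.358).

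Cntnap5a (chr1:115684756-116583317) had 1, 1 and 0 reads in GKAQ controls and 4 and 7 in cDKO, a ratio of 9.62 (95% exact interval 2.099 to 89.3; adjusted p = 0.0193). Its GKAO controls had 3, 3 and 1 reads and G9a cKO 3, 2 and 0. The cDKO call was lost without GKAQ control replicate 2 or 3 or either cDKO library (adjusted p = 0.0501 to 0.227), and with both control groups pooled (adjusted p = 0.0783).

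Of 19 semaphorin loci, 1 was called in cDKO, against 6.34% of all loci, and none in G9a cKO, against 1.79%. Sema3d (chr5:12378538-12589052), a secreted guidance ligand, had 7.54, 12.5 and 11.3 RPM in GKAQ controls and 29.0 and 24.9 RPM in cDKO. In GKAO controls it had 12.3, 15.7 and 17.6 RPM and in G9a cKO 7.51, 13.7 and 9.42 RPM. The cDKO libraries lay above every other library, while the G9a cKO and control groups overlapped. The cDKO rise was 1.39 ± 0.36 (adjusted p = 0.00429), the G9a cKO value was -0.61 ± 0.33 (adjusted p = 0.23), and the effects differed by 2.00 ± 0.49 (adjusted p = 0.00834). The cDKO call was lost without GKAQ control replicate 1 (adjusted p = 0.0543) or cDKO replicate 1 (adjusted p = 0.102), and the difference without cDKO replicate 1 (adjusted p = 0.0769). The most abundant semaphorin, Sema5a, was not called: it had 108.7, 102 and 94.1 RPM in GKAQ controls and 90.5 and 91.9 RPM in cDKO (-0.15 ± 0.16, adjusted p = 0.565).

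The direct test of the cDKO effect against the G9a cKO effect called 5 members (6.10%, against 1.08% of all loci, or 0.685% in the upward direction), and in each the cDKO effect was higher: Cdh17, Pcdh8, Robo1, Robo2 and Sema3d. For the other 8 loci that rose in cDKO this difference was not called, so a call in cDKO without one in G9a cKO does not show that the effects differed. Of the 13 loci higher in cDKO, 7 had a positive value in G9a cKO. The median G9a cKO value was -0.31 over all loci, and 51.5% of detected loci had a positive one. At loci without reads in the libraries compared, such as Cdh11, the sign follows the library totals and is no measure of change. Without cDKO replicate 1 the difference was called for 2 members. Without GKAQ control replicate 1 it was called for 27 members and 14705 of all loci, but 8635 of these loci (9 of the members) had no read in any library and 13040 (14 of the members) had at most 3. An empty locus is given 0.9 read, so its scaled value follows the library total alone, and that count is no measure of change in expression. No locus without reads was among the calls made with all libraries.

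**Figure D3:**
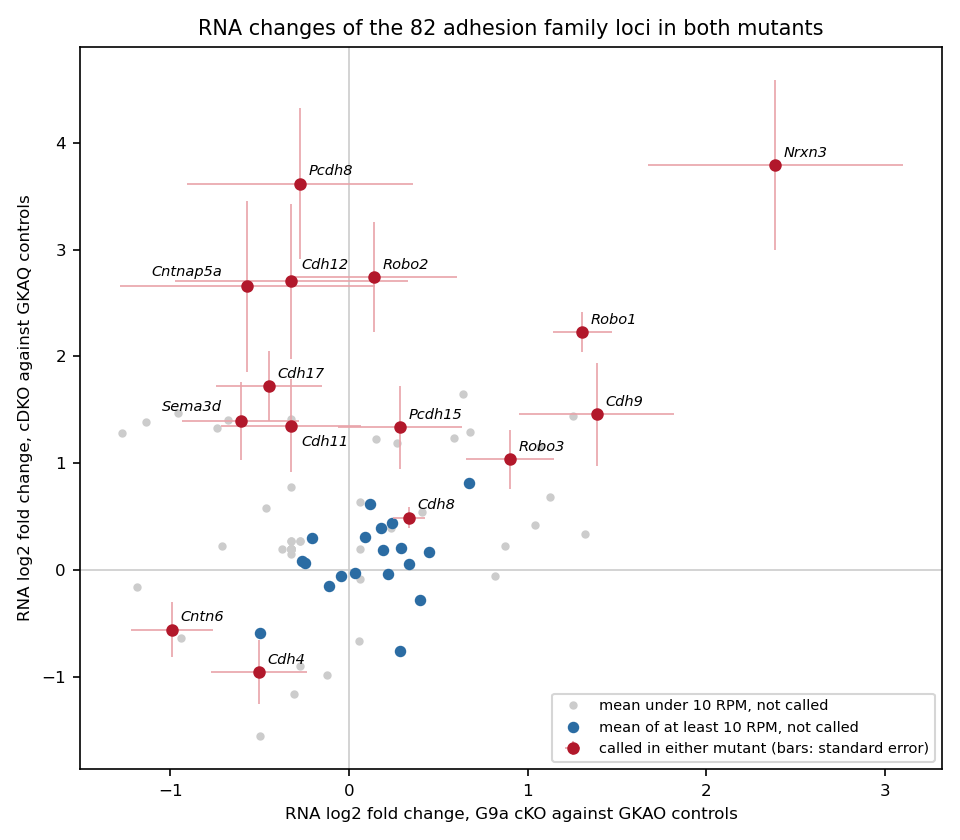
RNA log2 fold change of each of the 82 loci in G9a cKO (horizontal axis) and cDKO (vertical axis), each against its own controls. Red points with standard errors are the 15 called loci, blue points are the 19 detected loci called in neither mutant, which lie between -0.50 and 0.67 on the horizontal and between -0.76 and 0.81 on the vertical axis, and grey points are the remaining loci of low level.

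The detected loci called in neither mutant included Cdh1, Cdh2, Cdh3, Cdh23, Cdh24, Cntn1, Cntn2, Cntn4, Cntnap2, Dscam, Nlgn1, Pcdh9, Pcdh10, the 3′ Pcdh15 locus, Sema4c, Sema4d, Sema5a, Sema6a and Sema6d. For the 27 detected members the median log2 change was 0.18 (G9a cKO) and 0.19 (cDKO). Among all detected loci it was 0.01 and 0.05, and over the 1481 detected loci of at least 100 kb it was 0.04 and -0.01. In G9a cKO, 12 members (14.6%) had every mutant library above every control, against 6.57% of all loci, and 3 (3.66%) had every one below, against 4.46%. In cDKO, 30 members (36.6%) lay wholly above their controls, against 15.8% of all loci, and 7 (8.54%) wholly below, against 8.14%. Among detected loci the members above were 7 (25.9%) in G9a cKO, against 13.6%, and 10 (37.0%) in cDKO, against 27.5%, and those below were 3 (11.1%), against 11.6%, and 4 (14.8%), against 21.2%. At an unadjusted p under 0.05, 14 of the 82 members were reached in G9a cKO, where 10.5% of all loci were. In cDKO 30 of the 82 were reached, where 15.9% of all loci were.

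Partners of these proteins were taken from gene lists by role, and their values are log2 fold changes. Over all loci, 1.05% were called higher and 0.737% lower in G9a cKO, and 4.32% higher and 2.02% lower in cDKO. Of 10 loci of cadherin linkers (catenins), 1 was higher and 2 were lower in G9a cKO and 1 was higher in cDKO. The alpha-catenin Ctnna2 was higher in both (1.61, adjusted p = 0.0188, and 2.60, adjusted p = 1.1e-05), while p120 catenin Ctnnd1 (-0.73, adjusted p = 0.00398) and plakoglobin Jup (-1.06, adjusted p = 0.042) were lower in G9a cKO. Of 10 loci of plexins and neuropilins, the semaphorin receptors, none was called in G9a cKO and 2 were higher in cDKO: Plxna2 (1.11, adjusted p = 1.2e-08) and Plxnb3, which had no read in its controls (adjusted p = 0.0152). Of 22 loci of other guidance ligands and receptors, Neo1 and Dcc, both netrin receptors, were higher in G9a cKO (0.64 and 2.70, adjusted p = 0.00765 and 0.00183) and in cDKO (1.00 and 3.53, adjusted p = 4.5e-06 and 2.7e-05). Of 23 loci of synaptic adhesion partners, Lphn2 and Clstn2 were higher in cDKO (1.12 and 2.20, adjusted p = 0.0251 and 0.0383) and none was called in G9a cKO. Of 33 loci of synaptic scaffolds, Dlg1 was lower in G9a cKO (-0.71, adjusted p = 0.000404) and none was called in cDKO. Median log2 changes of the detected loci in these 5 lists ran from -0.43 (cadherin linkers) to 0.40 (guidance) in G9a cKO and from -0.26 (scaffolds) to 0.40 (synaptic adhesion partners) in cDKO, beside 0.01 and 0.05 over all detected loci.

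Marker lists of other cells were read in the same way. Of 13 granulosa cell loci, Inha and Fshr were higher in cDKO (2.26 and 2.15, adjusted p = 0.00472 and 0.03). The summed level of the list was not above that of the controls. Only 2 of the 13 loci were detected, so the sum need not show changes of loci of low level. Of 4 neuron loci, Snap25 was higher in cDKO, with 0 or 1 read in its controls and 5 and 6 reads in cDKO (adjusted p = 0.00785). The summed level of that list was 86.5 to 98.4 RPM in cDKO and 94.9 to 100 RPM in its controls. Only 1 of the 4 neuron loci was detected, so this sum too need not show changes of the others. Of 13 oocyte loci, 2 were higher and 1 lower in G9a cKO, and 4 were higher and 3 lower in cDKO. The shares of all loci were 1.05% higher and 0.737% lower in G9a cKO, and 4.32% higher and 2.02% lower in cDKO. Of the 13 oocyte loci, 11 were detected, and 5.22% and 15.8% of detected loci were called in G9a cKO and cDKO. No blood or stromal locus was called. The part of other cells in the changes of the adhesion loci was not tested.

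H3K9me2 was measured over the 10 kb windows that overlap each locus, as RPM per window. These values are scaled to each library's reads, so they show how the mark is distributed and not how much there is in total. The control libraries held 7048784 and 19128881 reads, the G9a cKO libraries 1857144 and 1109191, and the cDKO libraries 1723142 and 1881848. In controls the median level over members was 3.95 per window against 3.78 over named loci, with a range of 2.22 to 5.29. Detected members had a median of 3.92 and the others of 4.12. Both mutants are compared with the same 2 control libraries, so their values are given side by side and are not independent. Members are not wholly separate either: 8 share a window with another member, and the Pcdh17 loci have the same reads in every library. The titles of the H3K9me2 libraries carry no GKAO or GKAQ prefix, so controls could not be matched to each mutant as for RNA.

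In G9a cKO, H3K9me2 was lower over 16 member loci (19.5%) of 14 genes, against 2.49% of all loci, and higher over 3 (3.66%), against 7.05%, which makes 19 calls (23.2%, against 9.54%). Long loci hold more reads and were called more often: of loci of at least 100 kb, 11.5% were lower and 14.4% higher. Among the 38 members of that length, 14 (36.8%) were lower and 3 (7.89%) higher. In cDKO, 1 member was called, Cdh23 (1.22%, against 0.18% of all loci). Another 5 loci lay just outside the threshold (adjusted p = 0.051 to 0.0659), those of Nrxn3 (3′), Cntnap5a, Pcdh15 (3′), Pcdhac1 and Cntn3. The cDKO count was 5 to 7 with at least 20 reads, with 2 RPM added or with windows wholly inside the locus, and 0 when any 1 of the 4 libraries compared was left out, so the counts in the 2 mutants do not show that their effects differed. The median change over members was -0.19 in G9a cKO and -0.07 in cDKO, beside 0.07 and 0.13 over all loci. Both G9a cKO libraries lay below both controls at 41 members (50%, against 24.0% of all loci) and above them at 15 (18.3%, against 35.1%). For cDKO these counts were 31 (37.8%, against 18.2%) and 21 (25.6%, against 37.9%). The direct comparison of the mutants called no member (limma), against 0.013% of all loci, and at an unadjusted p under 0.05 it reached 17 members (20.7%), against 17.1% of all loci.

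The G9a cKO calls rest on both controls: 2 members were called without control replicate 1 and 4 without control replicate 2, against 19 with both. The loci kept without control replicate 1 were those of Nrxn3, and without control replicate 2 they were Cdh8, Cdh11, the 3′ Nrxn3 locus and Pcdhac1. Without the library labelled G9a cKO replicate 1 or 2, 25 and 21 were called. When the spread was modelled on the level per window and not on the reads of the locus, no member was called. These counts stand without those over all loci, so they do not show whether members lost calls more than other loci.

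Among the called loci, the largest drop was over Cdh11, with 4.46 and 4.29 per window for controls, 1.42 and 2.29 for G9a cKO and 2.69 and 3.53 for cDKO. It was -1.25 ± 0.22 in G9a cKO (adjusted p = 0.0114) and -0.50 ± 0.22 in cDKO (adjusted p = 0.287). Among called loci, both Robo2 loci followed, at -1.09 ± 0.19 and -0.96 ± 0.22 in G9a cKO (adjusted p = 0.0113 and 0.0276) and -0.52 for each in cDKO (adjusted p = 0.211 and 0.277). Of the loci that were not called, the Cdh18 locus of 1 window had a lower value than any of these (-2.20, adjusted p = 0.0626). Every mutant library lay below both controls at the Cdh11 locus and both Robo2 loci. The RNA-called Robo2 locus had 4.26 and 3.70 per window for controls, 1.62 and 2.45 for G9a cKO and 2.98 and 2.51 for cDKO. The 3′ Nrxn3 locus, 53 windows long, had 4.16 and 4.48 for controls, 2.45 and 2.18 for G9a cKO and 2.92 and 3.14 for cDKO (-0.90 ± 0.08, adjusted p = 0.00361, and -0.51 ± 0.08, adjusted p = 0.051).

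Cdh8 had 3.65 and 3.63 per window for controls, 2.32 and 1.99 for G9a cKO and 3.30 and 3.04 for cDKO. It was lower in G9a cKO by -0.75 ± 0.11 (adjusted p = 0.00805), and its cDKO value was -0.20 ± 0.11 (adjusted p = 0.392). Robo1 had 3.91 and 3.97 for controls, 3.33 and 3.09 for G9a cKO and 3.71 and 3.47 for cDKO. It was lower in G9a cKO by -0.29 ± 0.08 (adjusted p = 0.0438), and its cDKO value was -0.13 ± 0.08 (adjusted p = 0.421). At both genes all mutant libraries lay below both controls, and the G9a cKO libraries lay below those of cDKO. The H3K9me2 difference between the mutants was not called at Cdh8 (0.56 ± 0.11, adjusted p = 0.0884, limma) or Robo1 (0.16 ± 0.08, adjusted p = 0.329, limma). RNA of Robo1 likewise stood at higher levels in cDKO than in G9a cKO.

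The remaining 10 lower loci were those of Cdh2, Cdh18, Cdh20, Cntn3, Cntn4, Cntnap5a, Nrxn3 (the 5′ locus), Pcdh19, Sema3a and Sema5b, with G9a cKO values of -0.64 to -0.23. Over the 16 lower loci the cDKO value was negative at 15, Cdh18 being the exception (0.07), with a median of -0.34. Higher H3K9me2 was found over Cdh23, with 3.98 and 3.85 per window for controls, 5.38 and 5.07 for G9a cKO and 5.51 and 5.85 for cDKO (0.42 ± 0.08, adjusted p = 0.0162, and 0.54 ± 0.08, adjusted p = 0.0472). Pcdhac1, whose locus spans part of the protocadherin clusters, was higher by 0.73 ± 0.11 in G9a cKO (adjusted p = 0.0088), and the 3′ Pcdh15 locus by 0.27 ± 0.07 (adjusted p = 0.0399). The Cdh23 call in cDKO was lost without any 1 of the 4 libraries compared (adjusted p = 0.15 to 0.327).

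**Figure D4:**
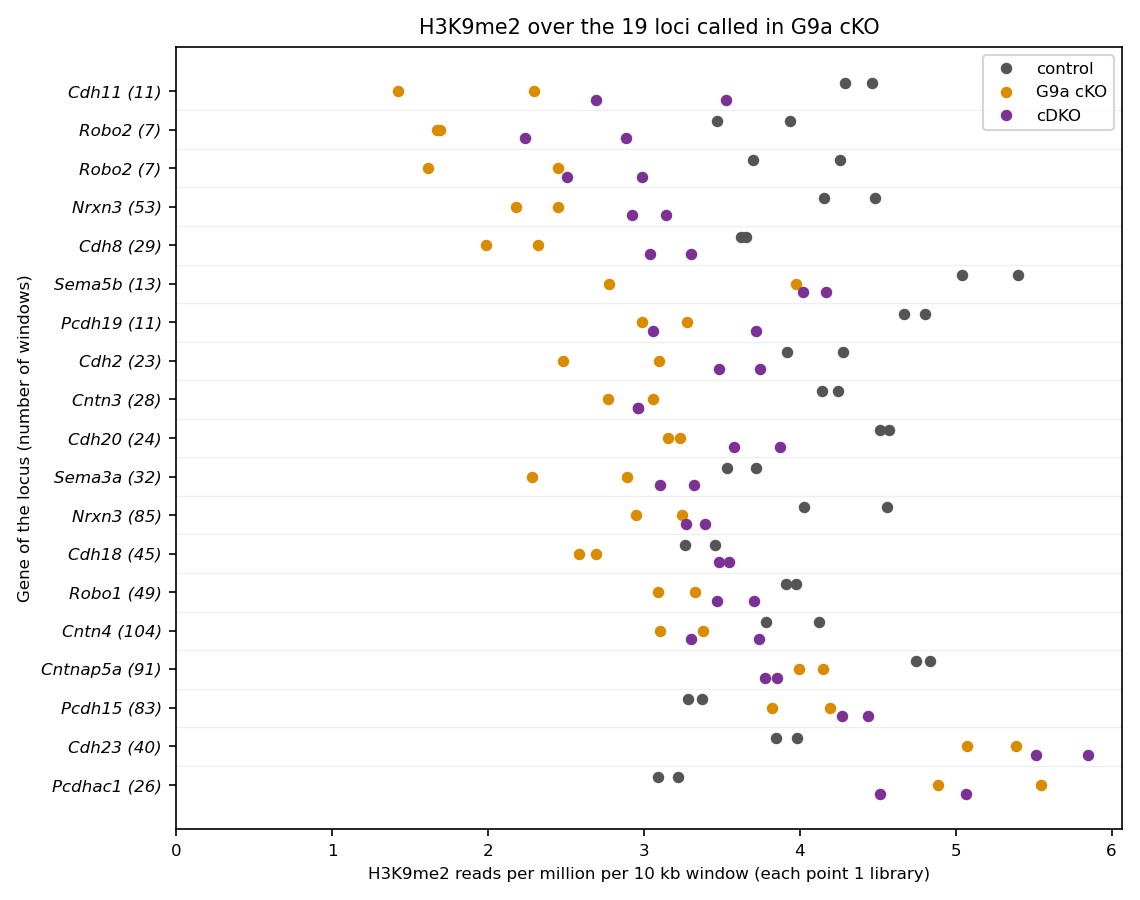
H3K9me2 level (RPM per 10 kb window) over the 19 loci called in G9a cKO, with 1 point per library (grey controls, orange G9a cKO, purple cDKO) and the number of windows after each gene name. At the 16 lower loci both orange points lie left of both grey points, and at Pcdh15, Cdh23 and Pcdhac1 they lie to the right; the 2 Robo2 rows and the 2 Nrxn3 rows are separate loci of those genes.

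RNA and H3K9me2 changes were set side by side at the called loci. Of the 4 loci with higher RNA in G9a cKO, 3 had both H3K9me2 libraries below both controls and 1 overlapped. Both libraries lay below at 50% of the 82 members and at 24.0% of all loci. Of these 4 loci, 2 were called lower (Cdh8 and Robo1), against 19.5% of members and 2.49% of all loci. Of the 13 loci with higher RNA in cDKO, 8 had H3K9me2 below both controls, 1 had it above (the 5′ Pcdh15 locus) and 4 overlapped. The share below was 37.8% of members and 18.2% of all loci. None of the 13 was called for H3K9me2. Robo3 lay among those that overlapped, with 5.53 and 5.04 per window for controls, 5.03 and 4.51 for G9a cKO and 5.22 and 5.14 for cDKO. Of the 16 loci with lower H3K9me2 in G9a cKO, 2 had higher RNA there, against 4.88% of members and 1.05% of all loci. Of the 16, 4 were detected, against 32.9% of members. Over the 27 detected members, RNA and H3K9me2 changes were weakly correlated at most (Pearson r = -0.05, Spearman rho = -0.08 in G9a cKO; Pearson r = -0.16, Spearman rho = -0.23 in cDKO), which describes loci that share libraries.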

How the data were processed

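RNA-seq of 11 oocyte libraries and H3K9me2 profiles of 6 were used; bisulphite, input and IgG samples were not analysed here. The authors deposited both data sets as log2 values, with a column for each library. Their unit is not named, and it was inferred from the values as log2 of reads scaled to a common library total (RPM), with 0.9 read for an empty feature. Recovered reads were whole for 100% of values (within 0.02 read or 0.02% of the value). Trim Galore, Bowtie2, HISAT2 2.1.0, Bismark 0.19.0 and GRCm38 are named per the submitters' processing notes. Counting, strand and filters are not given in the sources used here. Of the H3K9me2 columns, 4 belong to no listed sample and were left out.

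Members are loci whose gene symbol begins with a family name and lies on the locus's strand. The members, gene lists and tests were chosen with earlier results of these data known. Named are all called member loci and those with a mean of at least 10 RPM, and for H3K9me2 also called loci with the largest changes.

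One limma 3.58.1 model (R 4.3.3, data.table version 1.17.8), with a mean per group and trended, robust empirical Bayes spread, was fitted to the deposited log2 values of all 38540 loci. P-values were two-sided and Benjamini-Hochberg adjusted over all loci; called means an adjusted p under 0.05. H3K9me2 windows overlapping a locus were summed, 0.5 read was added, and log2 of RPM per window was tested over 38419 loci. Its spread was modelled on the mean reads of the locus, which was chosen after tests on simulated data. Where a group held 1 to 3 reads in all, a ratio of summed reads with an exact conditional interval (95%) is given, which covers counting error only, and no fold is given against 0 reads. Promoter sequences and gene spans are from RefSeq (GRCm38.p6), where all 82 loci matched a symbol and 81 overlapped that gene. Python 3.11.15, pandas 2.3.3, numpy 2.4.6, scipy 1.17.1 and matplotlib 3.10.9 were used. Alternatives were leaving out each library, other filters, scaling, pseudocounts, voom weights, pooled controls and a replicate block.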

Additional observations from a re-analysis of the deposited data

Results flagged for a closer look

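At 5 loci the RNA change in cDKO differed from that in G9a cKO by a direct test of the difference (limma, adjusted p under 0.05). The difference, on the log2 scale and higher in cDKO in each case, was 3.89 for Pcdh8, 2.60 for the called Robo2 locus, 2.17 for Cdh17, 2.00 for Sema3d and 0.92 for Robo1. At Pcdh8 the values rest on 1 read summed over the GKAQ controls, and at Robo2 the control groups differed from each other by -1.61.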

How the results depend on the processing

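None of the 47 values given for called loci and contrasts changed direction: of 506 values under alternatives, 349 stayed on their side of the threshold and 157 missed it. In cDKO, Cdh8, Nrxn3, Pcdh8 and Robo1 stayed called under each of 11 alternatives; no call of another contrast did. Leaving out each library in turn gave 1 to 5 called members in G9a cKO (5 with all), 8 to 12 in cDKO (14), 2 to 27 for the difference between effects (5; of the 27, reached without GKAQ control replicate 1, 14 had at most 3 reads in every library), 2 to 3 between control groups (3), and for H3K9me2 2 to 25 in G9a cKO (19), 0 in cDKO (1) and 0 to 7 between the mutants (0); where 1 cDKO library remained, it was assumed to vary like the other groups. With 2 RPM added to every value, these RNA counts were 0, 4, 1 and 0, and the Robo1 call in G9a cKO had an adjusted p of 0.0708. With voom weights they were 2 in G9a cKO, 2 for the difference and 1 between control groups, and with a mean of at least 1 RPM 3 for the difference. The title number as a replicate block gave 3 in G9a cKO, without Cntn6 (-0.77, adjusted p = 0.0922) and Nrxn3 (2.60, adjusted p = 0.0681), where the labels do not say what the number marks; the block could not be fitted for cDKO, whose titles share 1 number with their controls. For H3K9me2 in cDKO the count was 5 with at least 20 reads, 6 with 2 RPM added, 7 with windows wholly inside the locus and 0 when centred on all loci. With the spread modelled on the level per window, chosen after seeing the data, it was 0 in G9a cKO and 0 in cDKO. Member counts in this section stand without the counts over all loci, so they do not show whether members lost calls more than other loci. Other causes were not tested. RNA counts of a few reads per locus, and H3K9me2 libraries of unequal depth, limit what could be called.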
